A study of Homo sapiens with 12 samples.

Results

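Valine tRNAs gave 4 of the 44 adenosines in the table of methylated m1A sites, and these lay in 3 of its 29 tRNAs. They were taken by isotype, as every site listed under valine. Adenosines 59 and 60 belong to tRNA-Val-AAC-1-1, adenosine 59 to tRNA-Val-CAC-1-7 and adenosine 70 to tRNA-Val-CAC-3-1. The sites were read in DLD1 cells, a human colorectal cancer line. OE-WT cells had been transduced with lentivirus to overexpress TRMT6 and TRMT61A, and CTRL cells carried the empty vector. The series' design text speaks of TRMT6 and TRMT61A overexpression as separate groups, whereas each OE-WT label names both genes, and the labels were followed. Each of the 2 conditions was cultured in duplicate, and each of the 4 cultures gave a dma.IP library, an IP library and an Input library. IP stands for enrichment with an m1A antibody, Input for small RNA without the antibody, and dma marks a demethylase treatment whose step is not stated. Nothing states how far the duplicates were separated, so p-values of fits over libraries speak for these cultures only. Fits of read counts also share information on the spread across sites, so their p-values do not measure the spread at a single site. P-values of Fisher's exact test on summed reads measure counting error only. The table holds tRNA sites alone, so neither the DLD1 label nor the overexpression could be checked with a marker gene.

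tRNA-Val carries valine, an aliphatic amino acid, to the ribosome. Its AAC isoacceptor has an adenosine at the first anticodon base that is deaminated to inosine in human cells and so reads several valine codons, whereas the CAC isoacceptor pairs with GUG. TRMT61A is the catalytic subunit and TRMT6 the RNA-binding partner of the methyltransferase that methylates N1 of A58, an adenosine of the T loop in cytosolic tRNAs. The methyl group blocks base pairing, so reverse transcriptase stops or inserts wrong bases there, and a mismatch in a read is taken as a trace of m1A.

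The gene sequences are shown because the distance from A58 and the near-identity of the entries set what each count can mean. Capitals mark the listed adenosines, and each line runs 5′ to 3′ without the CCA that is added after transcription.
tRNA-Val-AAC-1-1: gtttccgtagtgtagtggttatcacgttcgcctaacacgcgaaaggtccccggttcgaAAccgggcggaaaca
tRNA-Val-CAC-1-7: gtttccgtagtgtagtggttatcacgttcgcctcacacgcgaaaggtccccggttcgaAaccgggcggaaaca
tRNA-Val-CAC-3-1: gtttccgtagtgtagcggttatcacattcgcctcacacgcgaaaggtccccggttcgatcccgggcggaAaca

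All 3 genes are 73 nt long and read ttcga over positions 54 to 58, so A58 is present in each. None of the valine sites was A58 itself, which was listed for 8 of the 44 sites. Both A59 sites lay 1 nt past A58, A60 of tRNA-Val-AAC-1-1 lay 2 nt past it, and A70 of tRNA-Val-CAC-3-1 lay 12 nt past it, in the 3′ strand of the acceptor stem. A60 was the only one of the 44 sites at 2 nt, while 5 sites lay at 1 nt and 3 at 12 nt.

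In hg38, tRNA-Val-AAC-1-1 is on the plus strand at chr3:169772230-169772302, where RefSeq has TRV-AAC1-1, and GENCODE lists no gene at the site. Its A59 is base 169772288 and its A60 base 169772289. tRNA-Val-CAC-1-7 (TRV-CAC1-7) is on the minus strand at chr1:149712552-149712624, within the lncRNA gene ENSG00000290790 but outside its exons, with A59 at base 149712566. tRNA-Val-CAC-3-1 (TRV-CAC3-1) is on the minus strand at chr19:4724635-4724707. Its A70, base 4724638, also falls in an exon of DPP9, a dipeptidyl peptidase gene, and in the RefSeq lncRNA LOC105372250. The AAC-1 sequence is shared by 6 genes and the CAC-1 sequence by 8, while CAC-3-1 stands for 1 gene.

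tRNA-Val-AAC-1-1 and tRNA-Val-CAC-1-7 differed at 1 base of 73, A34C counted from the 5′ end with the AAC base first, and were 98.6% identical. They share positions 35 to 73, a run of 39 nt that holds A59 and A60. Reads of 15 nt or more were kept before alignment, and every 15-nt window over A59 is the same in both genes. A read that did not reach the anticodon could therefore have come from either tRNA, and the counts at AAC-1-1 A59 and CAC-1-7 A59 are not separate measurements of 2 tRNAs. Adenosines were absent at 59 and 60 of tRNA-Val-CAC-3-1, which differed from CAC-1-7 by T16C, G26A, A59T and A60C, with the CAC-1-7 base first. A70 occurs in all 3 tRNAs, and its shared run, positions 61 to 73, is 13 nt before the CCA. With the CCA that the authors appended to their references, 2 of the 7 windows of 15 nt over A70 are the same in all 3, so a short read at the 3′ end could come from any of them.

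Over all 44 sites the OE-WT libraries held 203 and 123 reads in dma.IP, 59 and 150 in IP and 72519 and 60761 in Input, and the CTRL libraries 62 and 136, 119 and 220, and 33288 and 67697. A read that covers several sites is counted at each. tRNA-Asp took 55.7% of the dma.IP reads, 21.2% of the IP reads and 94.5% of the Input reads, so any share of a library's reads moves with tRNA-Asp. Every listed site had at least 1 mismatched IP read, and each valine site had exactly 1, as did 35 of the 44 sites. Presence in the table therefore went with an IP mismatch, and the part of this in the IP values was not tested.

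The valine sites were of middle depth in Input, and their coverage did not differ detectably between conditions. With 529, 437, 411 and 220 Input reads, CAC-1-7 A59, AAC-1-1 A60, AAC-1-1 A59 and CAC-3-1 A70 ranked 15th, 16th, 17th and 22nd of the 44 sites, whose median was 189 reads. AAC-1-1 A59 had 134 and 113 reads in OE-WT Input, against 74 and 90 in CTRL Input. AAC-1-1 A60 had 137 and 126 reads in OE-WT, against 80 and 94 in CTRL. The neighbouring adenosines were covered nearly alike, with A60 at 1.02 to 1.12 times the reads of A59 within a library. CAC-1-7 A59 had 158 and 165 reads in OE-WT Input, against 79 and 127 in CTRL Input. CAC-3-1 A70 had 71 and 53 reads in OE-WT, against 41 and 55 in CTRL, the lowest coverage of the 4 in each library.

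As a share of the table's reads, which removes the smaller size of the first CTRL library, the conditions overlapped at all 4 sites. AAC-1-1 A59 took 0.185% ± 0.000845 of Input reads in OE-WT and 0.178% ± 0.0632 in CTRL (SD, n = 2 each). CAC-1-7 A59 took 0.245% ± 0.0380 in OE-WT and 0.212% ± 0.0352 in CTRL, and CAC-3-1 A70 took 0.0926% ± 0.00755 in OE-WT and 0.102% ± 0.0296 in CTRL. In these bulk libraries a share cannot tell fewer cells with a tRNA from less of it in each cell. In edgeR's quasi-likelihood test the log2 differences, OE-WT over CTRL, were 0.21 ± 0.50 (SE) for CAC-1-7 A59, 0.07 ± 0.52 for AAC-1-1 A60, 0.07 ± 0.53 for AAC-1-1 A59 and -0.13 ± 0.65 for CAC-3-1 A70. Their edgeR adjusted p lay between 0.871 and 0.934, and 0.0% of the 44 sites were called, with 1 site at an unadjusted p under 0.05 and 0 calls by DESeq2.

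**Figure D1:**
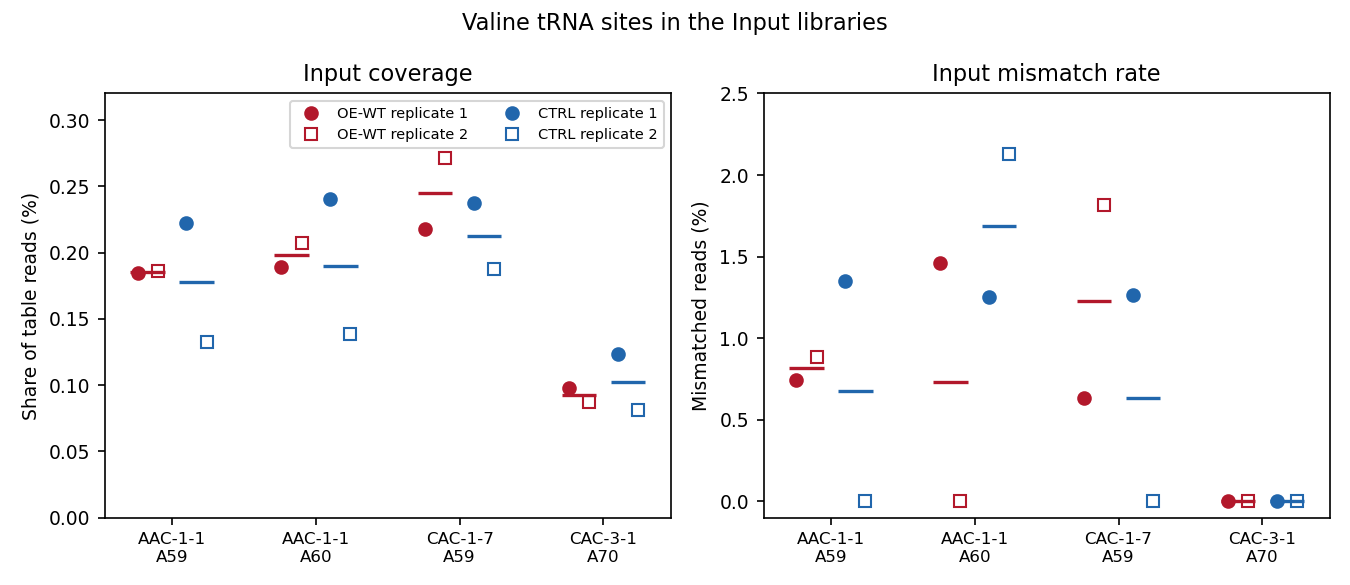
Input share of the table's reads (left panel, %) and Input mismatch rate (right panel, %) at the 4 valine tRNA sites, with a point per library, OE-WT in red and CTRL in blue, and a bar at the mean of the 2 libraries. Shares ran from 0.0812% to 0.272%, CAC-3-1 A70 had the lowest share in every library, and its rate was 0% in all 4.

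Mismatches were rare at the valine sites in Input. AAC-1-1 A59 had a mismatch in 1 of 134 and 1 of 113 reads in OE-WT, against 1 of 74 and 0 of 90 in CTRL. AAC-1-1 A60 had 2 of 137 and 0 of 126 in OE-WT, against 1 of 80 and 2 of 94 in CTRL. CAC-1-7 A59 had 1 of 158 and 3 of 165 in OE-WT, against 1 of 79 and 0 of 127 in CTRL. Each of these 3 sites thus rested on 0 to 3 mismatched reads per library, and the 2 conditions overlapped. At CAC-3-1 A70 no Input read was mismatched in any library, 0 of 220, which allows a rate of up to 1.36%. By condition the limit was 2.42% in OE-WT (0 of 124 reads) and 3.12% in CTRL (0 of 96).

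Summed over the libraries of a condition, AAC-1-1 A59 was mismatched in 0.810% of reads in OE-WT and 0.610% in CTRL, a difference of 0.20 percentage points (Newcombe 95% interval -2.62 to 2.35). AAC-1-1 A60 stood at 0.760% in OE-WT and 1.72% in CTRL, a difference of -0.96 points (-4.23 to 1.31). CAC-1-7 A59 stood at 1.24% in OE-WT and 0.485% in CTRL, a difference of 0.75 points (-1.59 to 2.70). Every interval included 0 and reached past 2 points on one side, so a change of the size of these rates themselves was not detectable at this depth. The quasi-binomial model of mismatched and total reads, fitted over 23 sites, gave adjusted p values of 0.829, 0.829 and 0.961 for AAC-1-1 A60, CAC-1-7 A59 and AAC-1-1 A59 (2 libraries a condition, tool: R's glm), and CAC-3-1 A70 could not be fitted without a mismatch. The share called was 0.0% in this model, with 0 sites at an unadjusted p under 0.05, and limma called 0 sites, while a Fisher's exact test of the summed reads gave 1 call outside the valine sites. Intervals cover counting error only, since reads were summed over libraries. Reads carry no molecular identifiers, so copies of a molecule cannot be told apart and the intervals may be too narrow.

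The valine sites had the 4 lowest Input mismatch rates among the 24 sites with 20 or more reads in every Input library. Over the 4 libraries the rates were 0% for CAC-3-1 A70 (exact 95% interval 0 to 1.66) and 0.730% for AAC-1-1 A59 (0.151 to 2.12). They were 0.945% for CAC-1-7 A59 (0.308 to 2.19) and 1.14% for AAC-1-1 A60 (0.373 to 2.65). The order among the 4 is within their intervals, and the 3 at A59 and A60 lie in the run shared by AAC-1-1 and CAC-1-7. The next site, tRNA-Asp-GTC-3-1 A65, stood at 2.05%, with 514 of 25095 reads mismatched and an interval of 1.88 to 2.23, which the intervals of the last 3 valine sites reach or overlap. After it came tRNA-Lys-TTT-3-1 A9 (5 of 234 reads, 0.697 to 4.92) and tRNA-iMet-CAT-1-1 A62 (3 of 138 reads, 0.451 to 6.22). Their intervals overlap those of all 4 valine sites. The median of the 24 sites was 4.39% and the highest was 53.4%. Summed over its 4 sites, valine had 13 mismatches in 1597 Input reads, 0.814%, against 18062 in 232668 reads at the other 40 sites, 7.76%. Per library the valine rate was 0.800% and 0.875% in OE-WT and 1.09% and 0.546% in CTRL, and the rate at the other sites was 8.33% and 7.34% in OE-WT and 7.55% and 7.64% in CTRL. The other sites are dominated by tRNA-Asp reads, and each group of sites keeps its own tRNAs in every library, so these rates are a description of the sites and carry no test.

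**Figure D2:**
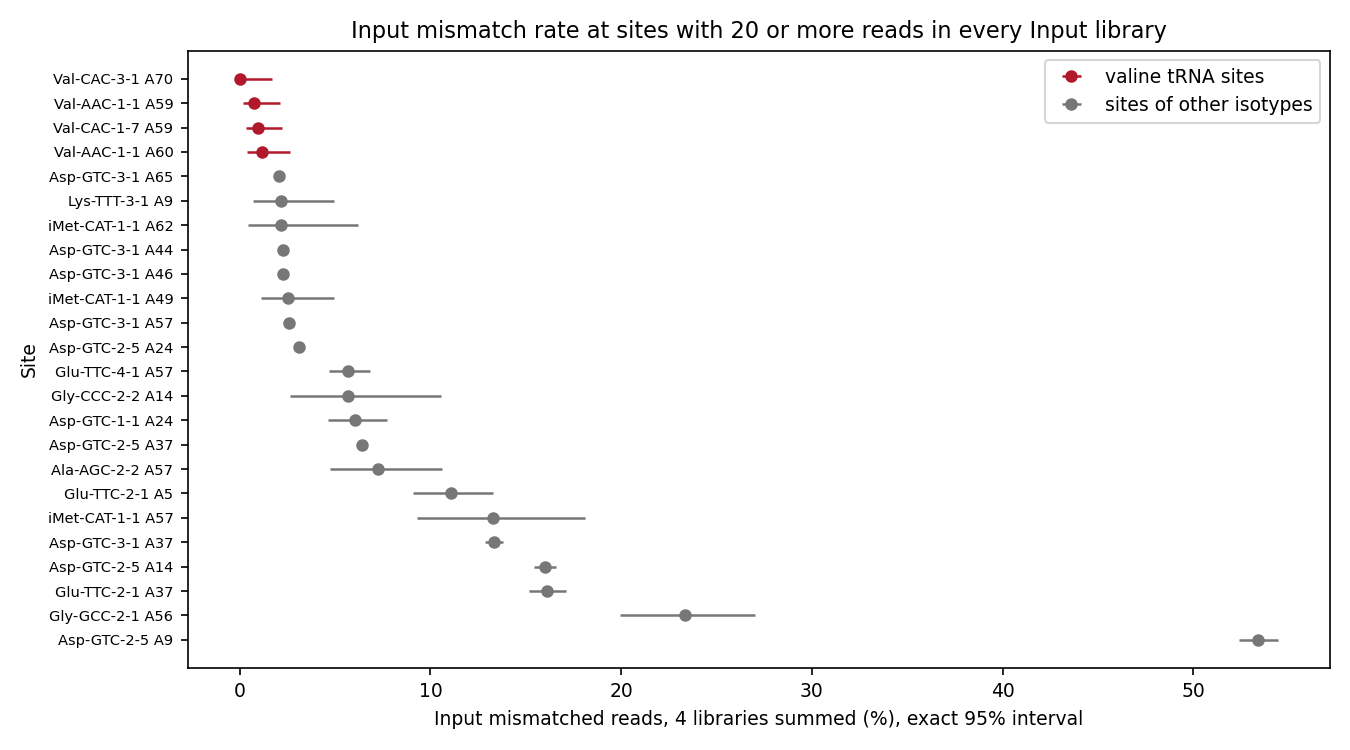
Input mismatch rate (%, reads of 4 libraries summed) at the 24 sites with 20 or more reads in every Input library, lowest at the top, with exact 95% intervals and valine tRNA sites in red. The 4 valine sites stand at the top with 0% to 1.14%, next to a median of 4.39%.

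The rule for likeness, the smallest Euclidean distance between the rates in the 4 Input libraries, named the same pair of other-isotype sites for each valine site. These were A65 and A44 of tRNA-Asp-GTC-3-1, at distances of 2.23 to 4.17 and 2.64 to 4.55 percentage points, and the closest pairing was A65 with AAC-1-1 A60. Both carry rates near 2%, at 2.05% of 25095 reads and 2.25% of 24932.

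Distance from A58 did not go with one rate. The 5 sites at A58 with enough reads ran from 2.6% to 23.4% in Input, with a median of 7.27%, all above the 4 valine rates. At 1 nt past A58 the table also held tRNA-Gln-CTG-5-1 A58, tRNA-Gln-TTG-2-1 A58 and tRNA-Leu-CAA-2-1 A94, with 1 of 12, 0 of 27 and 0 of 10 mismatched Input reads, too few to set beside valine. At 12 nt past it, tRNA-Gln-CTG-4-1 A69 had 0 of 8 and tRNA-Gln-TTG-3-3 A69 had 2 of 24, against 0 of 220 for CAC-3-1 A70. Among the aliphatic isotypes (Ala, Gly, Ile, Leu, Val), 7 sites had enough reads and a median of 1.14%, and 4 of them are the valine sites, while the 17 sites outside the aliphatic isotypes had a median of 5.69%.

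In IP, A70 of tRNA-Val-CAC-3-1 was recovered far above its Input share in each of the 4 cultures. The T-loop sites of the other valine tRNAs had smaller ratios of IP share to Input share in summed reads, under that of the median site. In the first OE-WT culture, however, AAC-1-1 A59 and A60 stood higher than A70, at 55.0 and 53.8 times the Input share against 34.6. CAC-3-1 A70 had 2 and 29 IP reads in OE-WT, 3.39% and 19.3% of their libraries, and 4 and 6 reads in CTRL, 3.36% and 2.73%. The Input shares in the same cultures were 0.0979% and 0.0872% in OE-WT and 0.123% and 0.0812% in CTRL, so the IP share was 34.6 and 222 times the Input share in OE-WT and 27.3 and 33.6 times in CTRL. The second OE-WT library stood apart, and the other 3 cultures were close together. AAC-1-1 A59 had 6 and 0 IP reads in OE-WT, against 3 and 2 in CTRL, and AAC-1-1 A60 had 6 and 2 in OE-WT, against 4 and 2 in CTRL. CAC-1-7 A59 had 1 and 0 reads in OE-WT, against 3 and 2 in CTRL. A59 of both tRNAs thus had no read in the second OE-WT IP library, and its 0 reads of 150 allow a share of up to 2.00%.

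IP was set against Input in edgeR's quasi-likelihood test, with library size as the sum over the 44 sites and no pairing of a culture's fractions. The spread was estimated from the 12 libraries with information shared across the 44 sites. The p-values thus do not measure the spread of a valine site between cultures. The log2 ratio of IP over Input was 5.98 ± 0.68 (SE) for CAC-3-1 A70 (edgeR adjusted p = 1.18e-15). It was 3.96 ± 0.94 for AAC-1-1 A60 (edgeR adjusted p = 6.87e-05), 3.76 ± 1.01 for AAC-1-1 A59 (edgeR adjusted p = 0.000399) and 1.97 ± 1.51 for CAC-1-7 A59 (edgeR adjusted p = 0.283). With the culture as a block, the edgeR adjusted p was 2.60e-08 for CAC-3-1 A70, 0.00145 for AAC-1-1 A60, 0.00707 for AAC-1-1 A59 and 0.431 for CAC-1-7 A59. So 3 of the 4 valine sites were higher in IP, against 43.2% of all 44 sites. Among these 3, A59 and A60 of AAC-1-1 are neighbouring bases covered nearly alike in Input, so they are not separate members. DESeq2 with its own size factors called all 4, CAC-1-7 A59 among them (log2 3.96 ± 1.15, SE, DESeq2 adjusted p = 0.00105), where 65.9% of the 44 sites were called higher. Each of the 44 sites had a mismatched IP read, and the part of this in the ratios and their p-values was not tested. The calls changed with the scale, which the shares of tRNA-Asp in Input and IP given above move. The median log2 ratio over the 31 sites with IP reads in both conditions was 4.62 with table totals, 1.5 with TMM and 0.88 with totals outside tRNA-Asp. CAC-3-1 A70 lay 1.36, 1.28 and 1.31 above that median and stayed called, at 2.78 ± 0.71 (edgeR adjusted p = 0.000247) with TMM, where 31.8% of sites were called higher, and at 2.19 ± 0.63 (edgeR adjusted p = 0.00147) with totals outside tRNA-Asp, where 27.3% were. Relative to it the 2 AAC-1-1 sites lay at -0.91 to -0.62 under these 3 scales, and they were called under the first alone. CAC-1-7 A59 lay at -2.73 to -2.65 relative to it and was called under none of these 3. The place relative to the median moved with single cultures under table totals, where the set of sites behind the median changed too. Without the first OE-WT culture CAC-3-1 A70 lay at -0.045, with its own ratio at 6.33 and the median of 24 sites at 6.37. Without the first CTRL culture it lay at 0.64, with its own ratio at 6.08 and the median of 29 sites at 5.44. The AAC-1-1 sites lay at 1.26 (A59) and 1.35 (A60) without the second OE-WT culture, where the median of 22 sites was 3.19.

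**Figure D3:**
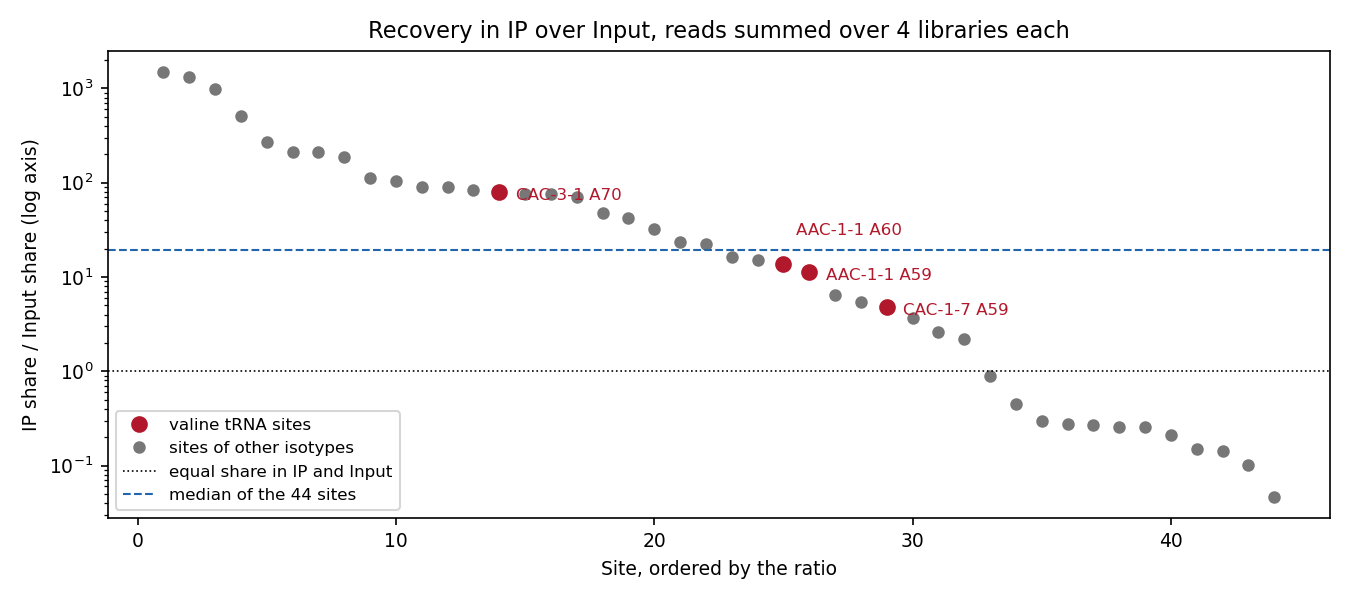
Ratio of IP share to Input share (log axis) for the 44 sites in order, from reads summed over the 4 libraries of each fraction, with the valine tRNA sites in red, the median site as a dashed line and equal shares as a dotted line. CAC-3-1 A70 stands 14th at 79.7 and the other 3 valine sites 25th to 29th at 4.85 to 13.7, below the median of 19.3.

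From summed reads, which leave no site at 0, the IP share of CAC-3-1 A70 was 79.7 times its Input share, 4.14 times the ratio of the median site. The ratio was 13.7 for AAC-1-1 A60, 11.4 for AAC-1-1 A59 and 4.85 for CAC-1-7 A59, all under the median ratio of 19.3. With tRNA-Asp left out of the totals these ratios were 5.52, 0.949, 0.793 and 0.336. CAC-3-1 A70 was the second most read site of the table in IP, with 41 of 548 reads, while it was 22nd in Input. Of these reads, 29 came from the second OE-WT library, and without that culture the site had 12 of 398 IP reads, tied for the 9th rank, and its ratio was 31.3, or 1.9 times that of the median site. The ratio was 9.04 times that of the median site without the second CTRL culture, where A60 and A59 of AAC-1-1 stood at 1.49 and 1.2 times it. The ratio at A59 was smaller in CAC-1-7 than in AAC-1-1, on 6 and 11 IP reads, and the run around it is the same in both genes. The 2 other sites at 12 nt past A58, tRNA-Gln-CTG-4-1 A69 and tRNA-Gln-TTG-3-3 A69, had 28 and 29 IP reads on 8 and 24 Input reads, ratios of 1496 and 517.

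Recovery in IP did not pass a test of the difference between OE-WT and CTRL at any valine site. For CAC-3-1 A70 the log2 ratio of IP over Input was 7.09 ± 0.89 in OE-WT and 4.87 ± 0.98 in CTRL, a difference of 2.22 ± 1.13 (SE, edgeR unadjusted p = 0.0510, adjusted p = 0.462). That difference rested on the second OE-WT culture with its 29 reads, and without it the value was 0.23. The difference was 1.24 ± 1.70 for AAC-1-1 A60, 1.23 ± 1.81 for AAC-1-1 A59 and -1.81 ± 2.38 for CAC-1-7 A59 (edgeR adjusted p = 0.884 each). The errors exceed the values for these 3, and the direction for AAC-1-1 A60 turned to -0.65 without the first OE-WT culture and that for CAC-1-7 A59 to 0.09 without the second. In this test 0.0% of the 44 sites were called, with 3 at an unadjusted p under 0.05 and 0 calls by DESeq2.

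In dma.IP the valine sites were nearly empty outside 1 library. CAC-3-1 A70 had 0 and 11 dma.IP reads in OE-WT, against 0 and 0 in CTRL. AAC-1-1 A60 had 0 and 7 in OE-WT, against 0 and 0 in CTRL, and AAC-1-1 A59 had 0 and 3 in OE-WT, against 0 and 0 in CTRL. CAC-1-7 A59 had 0 and 3 in OE-WT, against 0 and 1 in CTRL. The second OE-WT dma.IP library thus held 24 of the 25 valine reads of this fraction, 19.5% of its own reads, although the first OE-WT library was the deepest of the 4 and held 0 of 203.

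**Figure D4:**
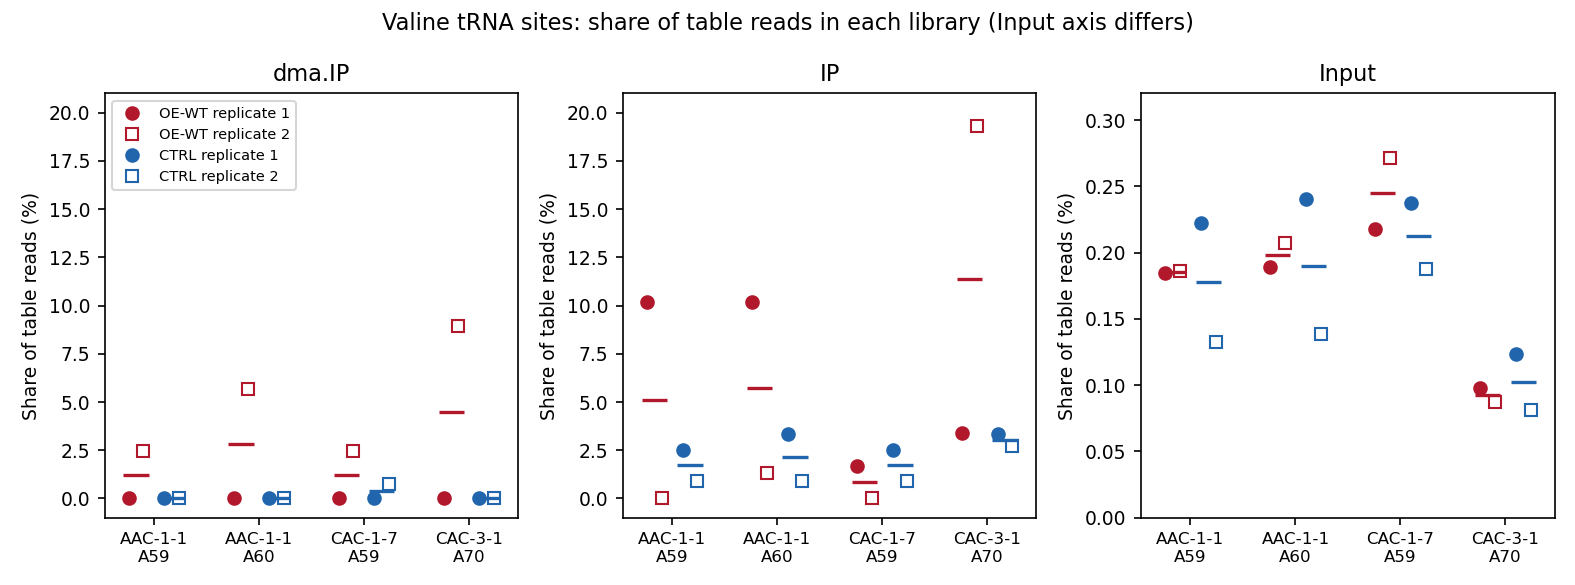
Share of the table's reads (%) at the 4 valine tRNA sites in the dma.IP, IP and Input libraries, with a point per library, OE-WT in red and CTRL in blue, and a bar at the mean of the 2 libraries. The Input axis is on another scale. In dma.IP the second OE-WT library (open red squares) is the only one above 0.735%, and in IP it holds the 19.3% at CAC-3-1 A70.

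The observed share of CAC-3-1 A70 was lower in dma.IP than in IP in each of the 4 cultures. The differences were -3.39 and -10.4 percentage points in OE-WT and -3.36 and -2.73 in CTRL. Outside the second OE-WT library the dma.IP counts were 0. In the first CTRL library, 0 of 62 reads allow up to 4.84%, above its IP share of 3.36%, so a decrease cannot be seen there. The limit was 2.21% in the second CTRL library and 1.48% in the first OE-WT library, against IP shares of 2.73% and 3.39%. Summed in OE-WT, the A70 share was 3.37% in dma.IP (11 of 326 reads) and 14.8% in IP (31 of 209). The dma.IP share was thus 0.227 times the IP share. In CTRL the A70 share was 0 of 198 reads in dma.IP, which allows up to 1.52% with the floor of 3 counts over the group. The observed IP share in CTRL, 2.95% (10 of 339), was 1.95 times that limit. Its exact interval, 1.42% to 5.36%, reaches under the limit, so these counts set no minimum fold in CTRL. The edgeR test over both conditions called the decrease (adjusted p = 0.0237), and 4.55% of the 44 sites were called lower in dma.IP. Each of the 44 sites had a mismatched IP read, and the part of this in the decrease was not tested. With the culture as a block the adjusted p was 0.0827 in edgeR and the call was lost. It was also lost with TMM (0.107), with totals outside tRNA-Asp (0.164) and without the second OE-WT culture (0.0754), the first CTRL culture (0.150) or the second CTRL culture (0.368), all edgeR adjusted p.

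The other 3 valine sites did not pass the dma.IP test. AAC-1-1 A59 had 3 of 326 dma.IP reads in OE-WT (0.920%), against 6 of 209 IP reads (2.87%), and AAC-1-1 A60 had 7 (2.15%), against 8 (3.83%). In CTRL both AAC-1-1 sites were at 0 of 198 dma.IP reads, against 5 and 6 of 339 IP reads. With the floor, these IP shares were 0.973 and 1.17 times the limit, so the depth hardly allows a decrease to be seen at A60 and not at A59. The edgeR adjusted p was 0.158 for A59 and 0.185 for A60. CAC-1-7 A59 had 3 of 326 dma.IP reads in OE-WT, against 1 of 209 in IP, and 1 of 198 in CTRL, against 5 of 339, a log2 difference of -0.35 ± 1.68 (SE, edgeR adjusted p = 1.00).

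Mismatches after the antibody were single reads. In IP, AAC-1-1 A59 was mismatched in 0 of 6 reads in OE-WT, against 1 of 5 in CTRL, and CAC-1-7 A59 in 0 of 1, against 1 of 5. AAC-1-1 A60 was mismatched in 1 of 8 IP reads in OE-WT, against 0 of 6 in CTRL, and CAC-3-1 A70 in 1 of 31, against 0 of 10. The A59 mismatches of both tRNAs stood in the second CTRL library, where each site had 2 reads. Fisher's exact test on the summed reads gave an adjusted p of 1.00 for each of the 4 sites, and 0.0% of 31 sites were called, with 0 at an unadjusted p under 0.05 and 0 calls by limma. In dma.IP the only valine mismatch was 1 of 3 reads at AAC-1-1 A59 in OE-WT, and none of the 4 sites entered the test of 6 sites there, of which 0.0% were called by Fisher's exact test and 1 by limma.

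Over the 4 sites together, the IP reads carried 4 mismatches in 72 (5.56%, exact 95% interval 1.53 to 13.6) and the dma.IP reads 1 in 25 (4.0%, 0.101 to 20.4), against 13 in 1597 in Input (0.814%, 0.434 to 1.39). A read over both A59 and A60 of AAC-1-1 is counted at each, while exact intervals take reads as separate, so these pooled intervals are too narrow. Since each listed site had a mismatched IP read, the IP rate is given without a test. A rate of 1 read in 41 at CAC-3-1 A70, 2.44% (0.0617 to 12.9), has an interval that includes rates under the limit of 1.36% that its Input allows.

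As a whole the valine sites took 4.77% of the dma.IP reads, 13.1% of the IP reads and 0.682% of the Input reads. Per library their share was 0% and 19.5% in dma.IP, 25.4% and 20.7% in IP and 0.689% and 0.752% in Input of OE-WT cells, against 0% and 0.735%, 11.8% and 5.45%, and 0.823% and 0.541% in CTRL cells. In IP both OE-WT libraries were above both CTRL libraries, by 14.4 percentage points of the library on average (23.0% ± 3.36 and 8.61% ± 4.46, SD, n = 2 each) and by 22.6 points with totals outside tRNA-Asp. With 2 libraries against 2 an exact permutation test cannot go below p = 0.333, and in OE-WT the share came from different sites, from A59 and A60 of AAC-1-1 in the first culture (6 reads each of 15) and from A70 of CAC-3-1 in the second (29 of 31).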

How the data were processed

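Per the methods of the study and the submitters' processing notes, small RNA was de-aminoacylated, Cutadapt 1.9.3 trimmed the reads, Bowtie2 aligned them to tRNA sequences, and SAMtools and edgeR were used by the authors. Other versions, the mismatch caller, the rule that chose sites and the demethylase step are not given in the sources used here. The authors deposited, per site and library, the count of covering reads and the count of mismatched reads, with no normalization. The mismatch rate they deposited is a fraction of these counts, and rates were recomputed. Deposited columns of differences and a ratio of IP over dma.IP rates hold the authors' comparisons and were not used. Only the 44 sites analysed are spoken for, as the table used may not be whole. Sequences were read from the table and matched to hg38, and genes came from RefSeq and GENCODE.

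Read counts were fitted over all 44 sites with edgeR 4.0.16 in R 4.3.3 (quasi-likelihood, Benjamini-Hochberg, threshold 0.05, SE taken as the log2 value over the root of F). DESeq2 1.42.0, TMM, other totals, a filter and left-out cultures were alternatives. Input rates were tested with a quasi-binomial model at 20 or more reads in every library, IP and dma.IP rates with Fisher's exact test (reads summed per condition), and limma 3.58.1 was an alternative. Intervals are exact Clopper-Pearson or Newcombe at 95%, computed in Python 3.11.15 with SciPy 1.17.1, and a share of 0 has the limit that 3 counts would make. Figures used matplotlib 3.10.9. The edgeR test of IP against Input was run on simulated counts to check the code, and no result here rests on that run. The 3 fractions of a culture share its name in the labels and are paired by it. The main edgeR fits left this pairing out, and a fit with the culture as a block was an alternative. OE-WT and CTRL share only a replicate number. Sites were grouped by isotype, all valine sites were named, and others only as nearest in Input rates, at the same distance from A58 or where a result turned on them. Members and lists were chosen with earlier results of these data known.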

Additional observations from a re-analysis of the deposited data

How the results depend on the processing

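Calls at the valine sites numbered 3 for IP over Input, 4 with DESeq2, 1 with TMM and 1 with totals outside tRNA-Asp, a scale added after seeing the data. The log2 ratio of CAC-1-7 A59 reversed to -1.23 and -1.83 under the last 2, and that of AAC-1-1 A59 to -0.037 outside tRNA-Asp. For dma.IP against IP, 1 site was called and 0 with TMM, with the culture as a block and with totals outside tRNA-Asp. There CAC-1-7 A59 reversed to 0.0052 with TMM, 0.48 with totals outside tRNA-Asp and 0.33 without the first CTRL culture. The Input coverage of CAC-3-1 A70 reversed to 0.018 with TMM, 0.16 with DESeq2 and 0.081 with totals outside tRNA-Asp. The cause was not tested, and none of these reversed values passed the threshold.

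The valine share of library reads was 15.1 points higher in IP than in Input, 9.61 with totals outside tRNA-Asp, and 11.9 to 18.5 with a culture left out. For dma.IP over Input it was 4.36 points, -4.49 outside tRNA-Asp, and -0.44 to 6.09 with a culture left out, the lowest without the second OE-WT culture. OE-WT minus CTRL ran, with a culture left out, from -0.37 to 19.1 points in dma.IP, from 11.3 to 17.6 in IP and from -0.10 to 0.18 in Input, and was 13.7, 22.6 and 2.56 points with totals outside tRNA-Asp.

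With a culture left out, Input coverage ran from -0.41 to 0.19 for CAC-3-1 A70, -0.28 to 0.51 for AAC-1-1 A60 and -0.26 to 0.48 for AAC-1-1 A59. The IP difference between conditions ran from -0.65 to 2.41 for AAC-1-1 A60 and -2.33 to 0.088 for CAC-1-7 A59. Input mismatch differences ran from -0.54 to 0.82 points for AAC-1-1 A59 and -0.040 to 1.23 for CAC-1-7 A59.

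With the culture as a block, IP over Input was 5.62 for CAC-3-1 A70, 3.98 for AAC-1-1 A60 and 3.72 for AAC-1-1 A59. In fits of Input alone the block was the replicate number. Blocks changed no call at the valine sites but that of dma.IP. OE-WT and CTRL share only a replicate number, and deviations of same-numbered Input libraries correlated at 0.19 over 24 sites. With 2 libraries a condition, the crossed pairing gives the mirrored value, -0.19. These values therefore cannot decide whether equal numbers are paired. A59 of AAC-1-1 and of CAC-1-7 gave no IP ratio without the first OE-WT culture, where OE-WT had 0 reads, so their ranges leave it out, and no valine site had 100 reads in every Input library. A depth of 0 to 29 IP reads per site and library limits each recovery value.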
